A study of Rattus norvegicus with 8 samples.

Results

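Solute carriers are membrane proteins that move small molecules such as sugars, amino acids, metal ions and nucleotides across the plasma membrane and the membranes of organelles, usually by facilitated diffusion or by coupling to ion gradients. In the testis they carry particular weight because the Sertoli cell barrier separates most germ cells from the blood, so that glucose, iron, vitamins and lactate reach meiotic and postmeiotic cells through carriers of the Sertoli cell. Some carriers are also made by spermatids and sperm. The carriers described here were the probe sets with a single gene symbol that begins with Slc and a digit, or with Slco, and with a signal of at least 50 on at least 2 arrays. These were 275 probe sets of 214 genes, out of 31042 non-control probe sets on the array and 14217 genes named by them. Another 147 carrier probe sets lay below the minimum, and 94 carrier genes had no probe set above it. The last probe sets inside it belonged to Slc16a3, Slc1a6 and Slc44a4, whose second-highest signals were 50.0, 50.3 and 51.2 in that order, and the first outside it to Slc28a2, Slc4a10 and Slc6a9, at 49.8, 49.5 and 48.9. By the symbol rule the set also holds Slc4a1ap, an adaptor protein, and Slc7a6os, a gene named for its position opposite a carrier, neither of which is itself a carrier.

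Whole testes of adult Sprague-Dawley rats gave the RNA for 8 arrays. One group was taken 4 d after a single dose of Adjudin of 50 mg/kg by gavage (3 arrays), one 8 h after the same dose (2 arrays), and the control group was normal, untreated testis (3 arrays). Adjudin is a compound known to loosen the attachment of developing germ cells to Sertoli cells. The labels name no vehicle group. They also do not state that separate animals were used for the arrays of a group, so a p-value here covers only how far these samples spread, and that spread may be technical. Values are the authors' signals, an arbitrary intensity scale on which probe sets of different genes cannot be set against each other. Log2 differences were taken after adding 16 to each signal, which understates changes of dim probe sets, and a change was called at an adjusted p below 0.05 in limma, adjusted over all 19808 probe sets tested.

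The number of arrays limited the precision, and 51.7% to 59.0% of probe sets reached a signal of 50 on each array. The arrays fell into 3 hybridisation runs: runs 1 and 3 held 1 array of each group, and run 2 held the second array at 4 d and the second control. Arrays of the same run deviated together from their group means, so counts are also given with the run as a block. Cell type markers moved at 4 d as well. Of 6 macrophage and leukocyte markers 5 rose, and their summed signal was 3059 to 3981 at 4 d, 911 to 1036 at 8 h and 947 to 1078 in control. Of 8 markers of elongating and elongated spermatids 4 fell, with sums of 56034 to 82734 at 4 d, 85315 to 112838 at 8 h and 81916 to 125034 in control. Of 4 round spermatid markers 3 fell, with sums of 10004 to 10924 at 4 d, 16008 to 18330 at 8 h and 15119 to 18015 in control. Of 8 Sertoli cell markers 2 rose and 1 fell, with sums of 19677 to 26349 at 4 d, 12017 to 13669 at 8 h and 10214 to 12117 in control. A sum is weighted toward its brightest probe sets. The median log2 difference of these 8 markers from control was 0.27 at 4 d and 0.28 at 8 h. Of 5 spermatocyte, 2 spermatogonial, 6 Leydig cell, 4 peritubular and 2 endothelial markers 0 passed the test, both measured red cell markers rose, and 0 of 4 epididymal markers passed the signal minimum. None of the measured markers of testis cells was at 0. With the run as a block, all 6 leukocyte markers rose, 8 of 8 elongated and 4 of 4 round spermatid markers fell, 3 Sertoli cell markers rose and 2 fell, 3 of 6 Leydig cell and 1 of 2 spermatogonial markers rose, 1 peritubular marker rose and 1 fell, both red cell markers rose, and 0 spermatocyte and 0 endothelial markers passed. In whole tissue, fewer cells of a type and less RNA per cell cannot be told apart, and the part of these marker shifts in the carrier values below was not tested.

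At 4 d, 24 of the 275 carrier probe sets rose and 13 fell against control, which is 13.5%, against 9.84% of all probe sets tested (6.13% higher, 3.71% lower). Counted with 1 probe set a gene, 22 of 214 carrier genes rose and 11 fell (15.4%), against 12.8% of all 11248 genes (7.61% higher, 5.17% lower). Both shares lie near the background, so the carriers as a whole did not stand out, and their median log2 difference was 0.0, against 0.04 over all probe sets. A fit with the run as a block called 39 carrier probe sets higher and 23 lower, and these included all 37 of the fit without it. That is 22.5% of the carriers, the same share as the 22.5% of all probe sets that it called. When both arrays of run 2 were left out, 8 rose and 2 fell, against 2.61% of all probe sets tested, while all 37 kept their sign. Of the 37 calls, 3 were at probe sets that had reached the signal minimum only through the side on which they were high: Slc8a1 (1372449_at), Slc17a7 and Slc25a53. Their counts support nothing, and without them 23 rises and 11 falls remained (12.4%), against 9.03% of all probe sets counted in the same way. Slc17a7 and Slc25a53 are also among the 11 genes that fell and in the class counts below. The groups did not overlap at 55 probe sets that were higher and 34 that were lower at 4 d, which is 32.4% of the carriers against 29.2% of all probe sets tested (17.4% above, 11.8% below).

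By substrate class, with the brightest probe set of each gene, the calls at 4 d were all rises in 5 classes. For vitamins this rests on Slc52a3, whose other probe set fell. Of 25 genes for metals and haem 4 rose, of 20 for nucleotide sugars and acetyl-CoA 3 rose, of 10 for sugars 3 rose, of 10 for fatty acids, bile acids, choline and sterols 2 rose, and of 8 for vitamins 1 rose. The called shares were 16%, 15%, 30%, 20% and 12.5% in that order, against 12.8% of all genes (7.61% higher, 5.17% lower). Of 37 mitochondrial carriers 4 rose and 2 fell, and of 35 amino acid and peptide carriers 2 rose and 2 fell. Of 15 calcium, magnesium and cation-chloride carriers 1 rose and 2 fell, and both the 15 proton, bicarbonate and anion carriers and the 14 carriers of organic cations and anions had 1 rise and 1 fall. Of the calcium and magnesium falls 1 was Slc41a2, whose other probe set rose. By probe set that class had 3 rises and 2 falls among 20. The 8 carboxylate carriers, the 5 phosphate and sulfate carriers and the 5 neurotransmitter, taurine and creatine carriers had 1 fall each. The neurotransmitter fall was Slc17a7, and 1 of the 2 mitochondrial falls was Slc25a53. Both probe sets reached the signal minimum only through the side on which they were high, so these falls are descriptions and their counts support nothing. None of the 3 nucleoside carriers passed the test. With the run as a block, which called 27.2% of all genes, the rises were 5 for metals, 5 for nucleotide sugars, 5 for mitochondrial carriers, 4 for amino acids, 4 for vitamins, 3 for sugars, 2 for lipids and related molecules, 2 for protons and anions, and 1 each for calcium and related ions, for carboxylates and for organic ions. The falls in that fit were 5 for amino acids, 4 for mitochondrial carriers, 2 each for calcium and related ions, for organic ions, for protons and anions and for the 4 unclassified genes, and 1 each for carboxylates, neurotransmitters and phosphate. The classes were not tested against each other, and these counts are a description.

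**Figure D1:**
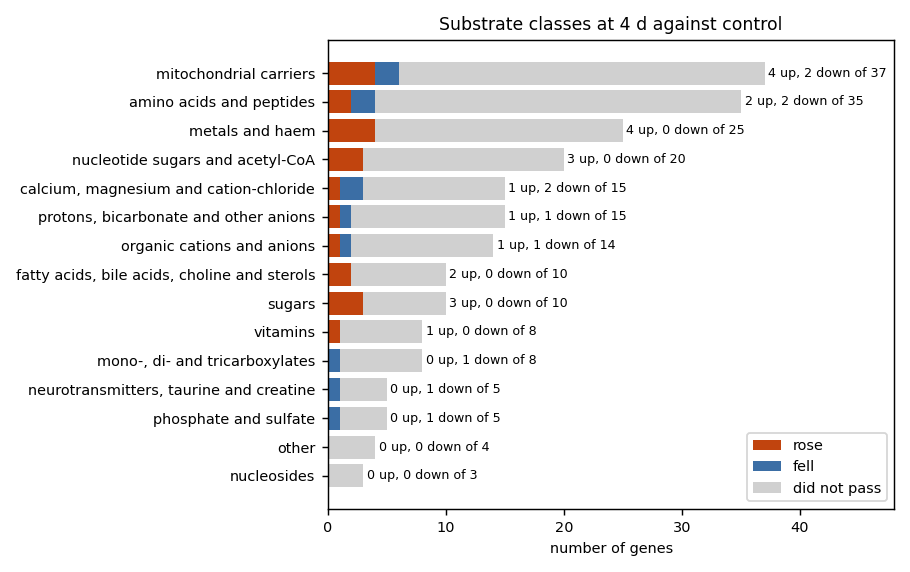
Number of solute carrier genes in each substrate class that rose, fell or did not pass the test at 4 d against control, with 1 probe set a gene (bar length, genes). The longest bar is the 37 mitochondrial carriers with 4 rises and 2 falls, and the metal and haem bar shows 4 rises among 25. Over all genes 12.8% were called. The falls of Slc17a7 and Slc25a53 are counted, although both reached the signal minimum only through their high side. Slc52a3 and Slc41a2 are counted by their brighter probe sets, and their other probe sets moved the opposite way.

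The promoters of 27 of the 33 called genes were matched in the RefSeq table (build GRCr8), and 4 are shown because they belong to carriers described below that moved in opposite directions: Slc11a2 and Slc66a3, which rose, and Slco6b1 and Slc36a3, which fell. Each is the 250 bases before the gene's start, read 5′ to 3′ on the gene's strand. Capitals mark the motifs searched on both strands, which were the GC box (GGGCGG), the TATA box (TATAAA), the CRE core (TGACG), the full CRE (TGACGTCA), the AP-1 site (TGANTCA) and the core of the antioxidant response element (TGACNNNGC). Every full CRE holds a CRE core, and the core of the antioxidant response element can share its first bases with one.
Slc11a2 (chr7:133417789-133418038, minus strand): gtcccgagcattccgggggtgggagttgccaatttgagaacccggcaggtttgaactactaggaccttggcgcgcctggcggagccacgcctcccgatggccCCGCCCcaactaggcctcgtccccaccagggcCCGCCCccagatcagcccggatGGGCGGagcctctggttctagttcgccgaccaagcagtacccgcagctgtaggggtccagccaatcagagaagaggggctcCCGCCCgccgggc
Slc66a3 (chr6:45515118-45515367, minus strand): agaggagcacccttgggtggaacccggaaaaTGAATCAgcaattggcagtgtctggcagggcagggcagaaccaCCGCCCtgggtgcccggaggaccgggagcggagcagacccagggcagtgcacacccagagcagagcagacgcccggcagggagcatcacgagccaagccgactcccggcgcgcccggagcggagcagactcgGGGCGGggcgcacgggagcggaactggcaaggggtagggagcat
Slco6b1 (chr9:104794650-104794899, minus strand): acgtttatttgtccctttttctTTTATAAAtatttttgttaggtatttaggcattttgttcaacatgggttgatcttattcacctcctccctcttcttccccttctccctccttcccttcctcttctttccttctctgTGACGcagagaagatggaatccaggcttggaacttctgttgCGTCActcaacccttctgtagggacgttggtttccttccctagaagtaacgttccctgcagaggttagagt
Slc36a3 (chr10:39771262-39771511, minus strand): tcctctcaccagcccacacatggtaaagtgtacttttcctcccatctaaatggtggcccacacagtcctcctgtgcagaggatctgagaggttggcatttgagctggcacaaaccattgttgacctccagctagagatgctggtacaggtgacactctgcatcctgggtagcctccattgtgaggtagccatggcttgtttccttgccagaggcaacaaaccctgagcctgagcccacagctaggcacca

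The Slc11a2 promoter held 4 GC boxes, and the Slc66a3 promoter 2 GC boxes and 1 AP-1 site. The Slco6b1 promoter held 2 CRE cores and 2 overlapping TATA boxes, 1 on each strand, and the Slc36a3 promoter held none of the motifs. A GC box was present in 12 of 18 matched genes that rose, in 2 of 9 that fell and in 86 of 153 carrier genes that did not pass the test, against 30.5% of all 33469 promoters. The 2 that fell were Slc17a7 and Slc25a53, whose falls are descriptions only, as given above. The core of the antioxidant response element was in 4 of 18 that rose and 1 of 9 that fell. It was also in 25 of 153 that did not pass, against 10.1% of all promoters. The 1 that fell was Slc41a2, whose other probe set rose. The CRE core was in 2 of 18 that rose, 1 of 9 that fell and 36 of 153 that did not pass (18.2% of all promoters). The TATA box (12.9%) and the AP-1 site (6.34%) were each in 1 gene that rose and 1 that fell. Each was also in 10 of 153 that did not pass. The full CRE was in 0 of 27 called genes, in 6 of 153 that did not pass and in 1.59% of all promoters. A match describes these letters only.

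Both rises among the carriers of lipids and related molecules were choline transporters. Slc44a2, a choline transporter-like protein of plasma and mitochondrial membranes, had signals of 429.6, 400.8 and 441.1 at 4 d, 126.1 and 101.6 at 8 h, and 131.0, 128.8 and 120.1 in control. Every array at 4 d stood well above the 5 others, and the 8 h and control arrays overlapped in range. The log2 difference at 4 d was 1.62 (SE 0.15), a fold of 3.08, with an adjusted p of 0.000278 in limma, and it stayed past the threshold under every alternative run. Slc44a1, the related choline transporter, had signals of 434.6, 300.7 and 425.0 at 4 d, 266.3 and 292.6 at 8 h, and 238.1, 215.1 and 186.9 in control. It rose by a log2 of 0.80 (SE 0.17, adjusted p 0.0184), but leaving out the first or the third array at 4 d or the second control lost the call (adjusted p 0.0906, 0.0678 and 0.0570). Its other probe sets, 1368480_at (log2 0.38, adjusted p 0.265) and 1370935_at (-0.03, adjusted p 0.954), did not pass. The other 8 genes of this class, among them the fatty acid transporter Slc27a1 at a log2 of -0.10, did not pass.

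Of the 25 carriers of metals and haem, 7 lay above all controls at 4 d and 0 below on their brightest probe sets. Of the 36 measured probe sets of these genes 8 lay above (22.2%) and 0 below, against 17.4% above and 11.8% below over all probe sets. Slc11a2, the divalent metal transporter that moves ferrous iron out of endosomes, had signals of 869.4, 785.0 and 848.5 at 4 d, 422.7 and 555.0 at 8 h, and 329.8, 377.3 and 296.7 in control. Its groups did not overlap, with the 8 h arrays between the others. The log2 difference was 1.28 (SE 0.15, adjusted p 0.00081) at 4 d, and it passed the threshold under every alternative run. At 8 h it was 0.52 (SE 0.17, adjusted p 0.866) and did not pass. Its other probe set, 1388059_a_at, did not pass at 4 d (log2 0.33, adjusted p 0.433).

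Slc39a14, an importer of zinc, iron and manganese, had signals of 244.7, 205.3 and 224.5 at 4 d, 107.3 and 132.5 at 8 h, and 108.9, 91.3 and 82.9 in control. Every array at 4 d was above every other array. It rose by a log2 of 1.13 (SE 0.17, adjusted p 0.00365), and 0.0514 without both arrays of run 2, while its other probe set, 1382919_at, did not pass (0.68, adjusted p 0.410). The zinc importer Slc39a1 had signals of 690.4, 545.0 and 729.5 at 4 d, 404.1 and 346.4 at 8 h, and 271.3, 315.4 and 411.0 in control, a log2 difference of 0.95 (SE 0.18, adjusted p 0.00971). Slc39a8, a close relative of Slc39a14 with a similar range of metals, rose by 0.74 (SE 0.17, adjusted p 0.021), a call that was lost without the first or the third array at 4 d or the first or the third control (adjusted p 0.0538 to 0.0906). Slc40a1, ferroportin, which exports iron, did not pass on either probe set (log2 of -0.07 and 0.40), and its arrays overlapped between groups.

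Among sugar carriers the rises were Slc45a4, Slc50a1 and Slc2a1. Slc45a4, placed by its family among proton-coupled sugar transporters, had signals of 809.1, 711.2 and 773.5 at 4 d, 476.2 and 539.2 at 8 h, and 351.2, 339.0 and 372.3 in control. The 3 groups were fully separate, with 8 h in between. The log2 difference at 4 d was 1.08 (SE 0.12, adjusted p 0.000798) and passed under every alternative run. At 8 h it was 0.50 (SE 0.14, adjusted p 0.586) and did not pass.

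Slc50a1, the animal member of the SWEET family of sugar carriers, had signals of 146.2, 141.5 and 222.9 at 4 d, 78.9 and 76.7 at 8 h, and 68.9, 66.8 and 79.0 in control. Its arrays at 4 d were above all others (log2 1.06, SE 0.21, adjusted p 0.0112, and 0.0816 without run 2). Slc2a1, the glucose transporter of the blood-testis barrier and of many somatic cells, had signals of 211.9, 244.7 and 244.6 at 4 d, 139.1 and 171.7 at 8 h, and 130.3, 148.3 and 104.1 in control. Again the 4 d arrays did not overlap with the rest. Its rise was a log2 of 0.81 (SE 0.18, adjusted p 0.018), and leaving out the first, second or the third array at 4 d gave 0.0525, 0.0658 and 0.0623. Slc2a3, the high-affinity glucose transporter of spermatids and sperm, had a log2 difference of 0.04 (95% interval -0.25 to 0.33) on its brighter probe set.

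**Figure D2:**
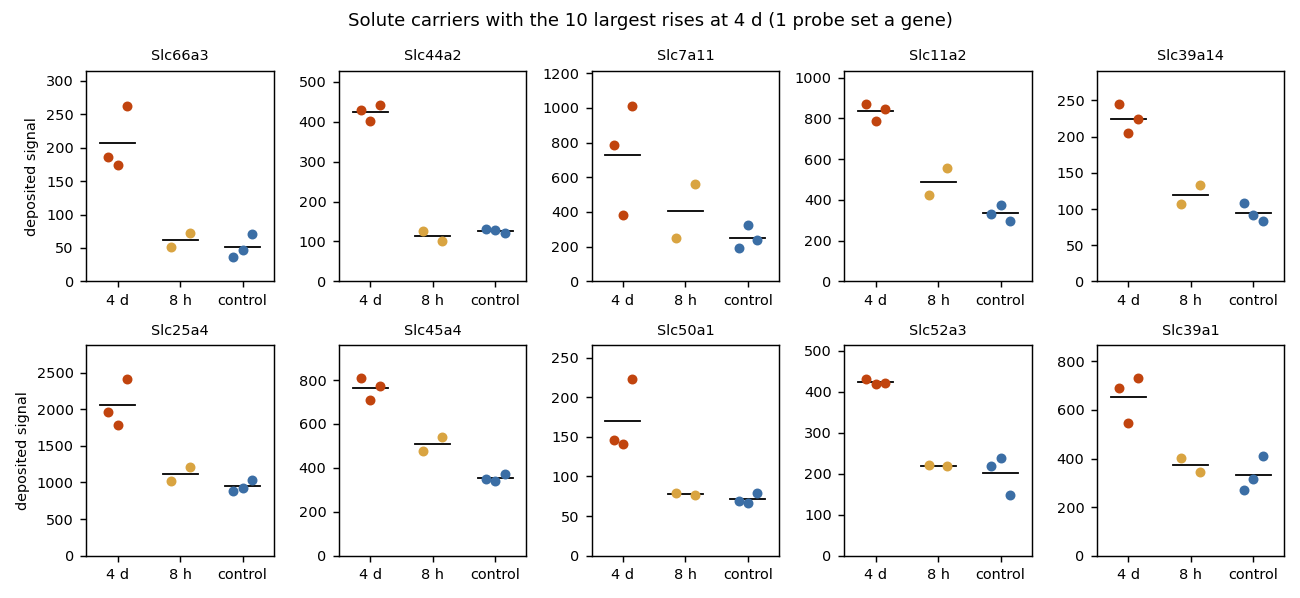
Deposited signal (linear axis from 0) of the 10 carrier genes with the largest rises at 4 d, 1 point an array and a bar at each group's mean, for 4 d (3 arrays), 8 h (2) and control (3). The 3 arrays at 4 d lie above every control array in each panel, and for Slc7a11 the second array at 4 d, 381.9, lies below the 8 h array at 560.2.

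Amino acid carriers moved both ways. Slc66a3, a PQ-loop protein placed here by family with the lysosomal amino acid exporters and with no settled substrate, had signals of 186.2, 174.6 and 262.3 at 4 d, 51.4 and 72.5 at 8 h, and 36.1, 46.9 and 71.3 in control. Signals at 4 d were above all others, and the 8 h and control arrays overlapped. This was a log2 difference of 1.74 (SE 0.25, adjusted p 0.00283), the largest rise with 1 probe set a gene, and it passed under every alternative run.

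Slc7a11, the exchanger that imports cystine for glutathione synthesis in return for glutamate, had signals of 788.5, 381.9 and 1013.3 at 4 d, 249.5 and 560.2 at 8 h, and 194.8, 322.8 and 240.1 in control. The second array at 4 d lay close to its control of the same run, and 1 array at 8 h lay above it. The log2 difference was 1.39 (SE 0.37, adjusted p 0.0449), and within the runs it was 1.93, 0.23 and 2.01. The call was lost without the first (adjusted p 0.15) or the third array at 4 d (0.147) and without the first, second or the third control (0.132, 0.065 and 0.0906), and it held without run 2 at a log2 of 1.97 (adjusted p 0.0348).

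Slc36a3, a testis-expressed relative of the proton-coupled amino acid transporters, had signals of 632.4, 707.2 and 417.9 at 4 d, 875.4 and 962.8 at 8 h, and 1096.8, 1331.1 and 950.3 in control. None of the 4 d arrays reached the lowest of the others. They differed from control by a log2 of -0.94 (SE 0.20, adjusted p 0.0164), and 0.0655 without the second control. Slc38a1, a sodium-coupled glutamine transporter, fell by 0.61 on the log2 scale (SE 0.15, adjusted p 0.0291, and 0.0557 to 0.0964 when the first or the third array at 4 d or any 1 control was left out), and did not pass on 1372921_at (-0.21, adjusted p 0.652). The remaining 31 genes of the class did not pass.

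Among mitochondrial carriers, the adenine nucleotide translocators exchange ADP for ATP across the inner membrane. Slc25a4, the form of heart and muscle, had signals of 1957.1, 1788.3 and 2418.3 at 4 d, 1016.6 and 1212.1 at 8 h, and 879.2, 929.6 and 1030.7 in control. At 4 d the signals were well above the rest, while 8 h and control overlapped. The change was a log2 of 1.10 (SE 0.15, adjusted p 0.00164), past the threshold under every alternative run. Slc25a31, the translocator of male germ cells, had signals of 802.7, 718.4 and 790.5 at 4 d, 876.2 and 783.9 at 8 h, and 758.1, 924.5 and 841.1 in control. These arrays overlapped (log2 -0.12, 95% interval -0.40 to 0.16, adjusted p 0.649).

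Slc25a1, which exports citrate for fatty acid and sterol synthesis, had signals of 882.3, 963.6 and 1070.4 at 4 d, 471.7 and 580.1 at 8 h, and 474.2, 611.4 and 607.7 in control (log2 0.77, SE 0.15, adjusted p 0.0112). Slc25a24, the calcium-regulated carrier of ATP-Mg and phosphate, rose by 0.92 (SE 0.22, adjusted p 0.0297). Slc25a17, a peroxisomal carrier of nucleotide cofactors, rose by 0.52 (SE 0.14, adjusted p 0.0473). The calls of Slc25a24 and Slc25a17 were lost when the first array at 4 d was left out (adjusted p 0.13 and 0.15). They were also lost without the third array at 4 d (0.0647 and 0.113), the first control (0.0615 and 0.108) or the second control (0.105 and 0.148), and that of Slc25a17 also without the second array at 4 d (0.119) or the third control (0.0637).

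The falls in this class were Slc25a45 and Slc25a53. Slc25a45 had signals of 123.2, 135.1 and 164.1 at 4 d, 202.1 and 183.9 at 8 h, and 303.0, 355.1 and 239.4 in control, with the 8 h arrays between the other groups. Its log2 difference at 4 d was -1.0 (SE 0.18, adjusted p 0.00813, and 0.108 without run 2). Slc25a53, a dim probe set with signals of 36.4 to 43.0 at 4 d, 95.8 to 119.2 at 8 h and 63.5 to 97.5 in control, had a log2 difference of -0.83 (SE 0.22). It reached the signal minimum only through the 8 h and control arrays, and with no signal minimum its adjusted p was 0.0814, which does not pass.

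Carriers that feed the Golgi with activated sugars and sulfate had 3 rises. Slc35a2, the UDP-galactose transporter, had signals of 188.6, 214.0 and 169.1 at 4 d, 88.7 and 75.9 at 8 h, and 101.8, 121.0 and 76.6 in control, a log2 difference of 0.85 (SE 0.20, adjusted p 0.0244). Slc35b2, which imports the sulfate donor PAPS, rose by 0.78 (SE 0.20, adjusted p 0.0396), and Slc35a1, the CMP-sialic acid transporter, rose by 0.62 (SE 0.15, adjusted p 0.0291). The other probe sets of Slc35a1, 1375254_at (0.62, adjusted p 0.0654) and 1386078_at (0.65, adjusted p 0.142), did not pass. For each of the 3, all arrays at 4 d lay above all controls, as did 7 of the 20 genes of the class, with 1 below. Of the 28 probe sets of the class 10 lay above and 1 below (39.3%), against 29.2% of all probe sets (17.4% above, 11.8% below). Over the alternatives the adjusted p was 0.0021 to 0.116 for Slc35a2, 0.0147 to 0.17 for Slc35b2 and 0.00863 to 0.225 for Slc35a1. For Slc35b2 and Slc35a1 leaving out any 1 array at 4 d or any 1 control lost the call (adjusted p 0.0623 to 0.142), and for Slc35a2 leaving out the first or second array at 4 d or the first or the third control did (0.0598 to 0.0929).

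Of 8 vitamin carriers, with a median log2 difference of 0.52, 5 lay above all controls at 4 d on their brightest probe sets. Over the 10 probe sets of these genes the median was 0.29, and 1 rose and 1 fell. Of these 10, 5 lay above all controls and 1 below, against 17.4% above and 11.8% below over all probe sets. Slc52a3, a riboflavin transporter, had signals of 431.6, 418.4 and 420.9 at 4 d, 220.6 and 218.7 at 8 h, and 219.7, 237.5 and 148.5 in control on its brighter probe set. The 4 d arrays stood apart from the rest, with a log2 difference of 1.04 (SE 0.18, adjusted p 0.00568) that passed under every alternative run. With the run as a block, which called 27.2% of all genes, 4 of the 8 passed. The additional genes were Slc5a6, the carrier of biotin and pantothenate (log2 0.64, adjusted p 0.0513 without the block and 0.011 with it), Slc46a1, the proton-coupled folate transporter (0.69, 0.093 and 0.0175), and Slc23a2, an ascorbate transporter (0.78, 0.169 and 0.00416).

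The other probe set of Slc23a2, 1369378_at, did not pass (log2 0.06 at 4 d). On the brighter one, given above, Slc23a2 differed between runs. Its signals were 185.5, 202.0 and 109.9 at 4 d, 119.0 and 65.5 at 8 h, and 115.7, 101.2 and 54.9 in control, so that the groups overlapped. The run 3 array was the lowest of each group, and within the runs the 4 d minus control differences were 0.61, 0.90 and 0.83. The riboflavin transporter Slc52a2 (log2 0.18) and the thiamine transporter Slc19a2 (0.01) did not pass in either fit.

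Ion carriers changed in both directions. Slc12a7, a potassium-chloride cotransporter, had signals of 370.2, 324.8 and 410.4 at 4 d, 189.0 and 181.5 at 8 h, and 173.4, 165.9 and 246.4 in control (log2 0.88, SE 0.18, adjusted p 0.0129). Leaving out the first or the third array at 4 d or the second control gave 0.0574, 0.0516 and 0.0540, and its other probe set, 1391796_at, did not pass (0.74, adjusted p 0.216). Slc24a4, a sodium, calcium and potassium exchanger, had signals of 103.4, 114.6 and 41.8 at 4 d, 232.1 and 151.9 at 8 h, and 224.4, 210.3 and 178.4 in control on its brighter probe set (log2 -1.18, SE 0.30, adjusted p 0.0358). Its arrays at 4 d were below all others, and the call was lost without the first or the third of them or without any 1 control (adjusted p 0.0532 to 0.105). On 1378356_at the difference was -0.64 (adjusted p 0.151).

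Of the anion exchangers, Slc26a6, which moves chloride, oxalate and bicarbonate, rose by 0.65 (SE 0.18, adjusted p 0.0492), and Slc26a5, known as prestin from cochlear hair cells, fell by 0.62 (SE 0.15, adjusted p 0.0322). Leaving out any 1 of the 8 arrays lost the first call (adjusted p 0.0631 to 0.181), and leaving out any 1 array at 4 d or any 1 control lost the second (0.0547 to 0.118). Slc26a8, the anion transporter of sperm, had 1647.9, 1705.9 and 1941.8 at 4 d, 1518.1 and 1625.6 at 8 h, and 1568.2, 1702.7 and 2042.9 in control. Its groups overlapped, and the log2 difference was 0.00 (95% interval -0.30 to 0.30).

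Carriers of phosphate, carboxylates and organic anions had 1 fall each. Slc17a2, of the sodium-phosphate cotransporter family, had signals of 1052.3, 1285.0 and 1046.5 at 4 d, 1895.7 and 2021.2 at 8 h, and 1788.6, 2035.2 and 2122.1 in control. Signals at 4 d were below all others, while 8 h and control overlapped. They gave a log2 difference of -0.81 (SE 0.13, adjusted p 0.00448), past the threshold under every alternative run.

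Slc16a6, of the monocarboxylate transporter family, had signals of 1039.9, 1384.1 and 1150.0 at 4 d, 1858.2 and 2111.7 at 8 h, and 1838.0, 2346.7 and 1873.2 in control. Its 4 d arrays were also below all others (log2 -0.75, SE 0.15, adjusted p 0.0119, with 0.0615 without the first array at 4 d and 0.0501 without the second control). Its other probe set, 1376267_at, did not pass (-0.24, adjusted p 0.348). Slco6b1, an organic anion transporter of the gonad in rats, had signals of 2487.3, 2730.8 and 2323.9 at 4 d, 3538.6 and 3755.2 at 8 h, and 3422.6, 3258.9 and 3617.6 in control. The arrays at 4 d did not overlap with the others, and the log2 difference was -0.45 (SE 0.11, adjusted p 0.0336), but leaving out any 1 array at 4 d or any 1 control lost the call (adjusted p 0.0547 to 0.126). Slco2b1, a broader organic anion uptake carrier, rose by 0.62 (SE 0.17, adjusted p 0.0432), and leaving out any 1 of the 8 arrays lost that call (0.0546 to 0.139), while 1368296_at did not pass (0.56, adjusted p 0.197).

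At the dim end, Slc17a7, a carrier that loads glutamate into synaptic vesicles, had signals of 10.5, 10.1 and 5.3 at 4 d, 49.5 and 39.3 at 8 h, and 61.3, 36.4 and 57.0 in control. All arrays at 4 d lay far below the minimum signal of 50, which the probe set reached only through 2 control arrays. Its log2 difference, -1.44 (SE 0.30), is therefore given as a description. With no signal minimum for any probe set the adjusted p was 0.0119.

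**Figure D3:**
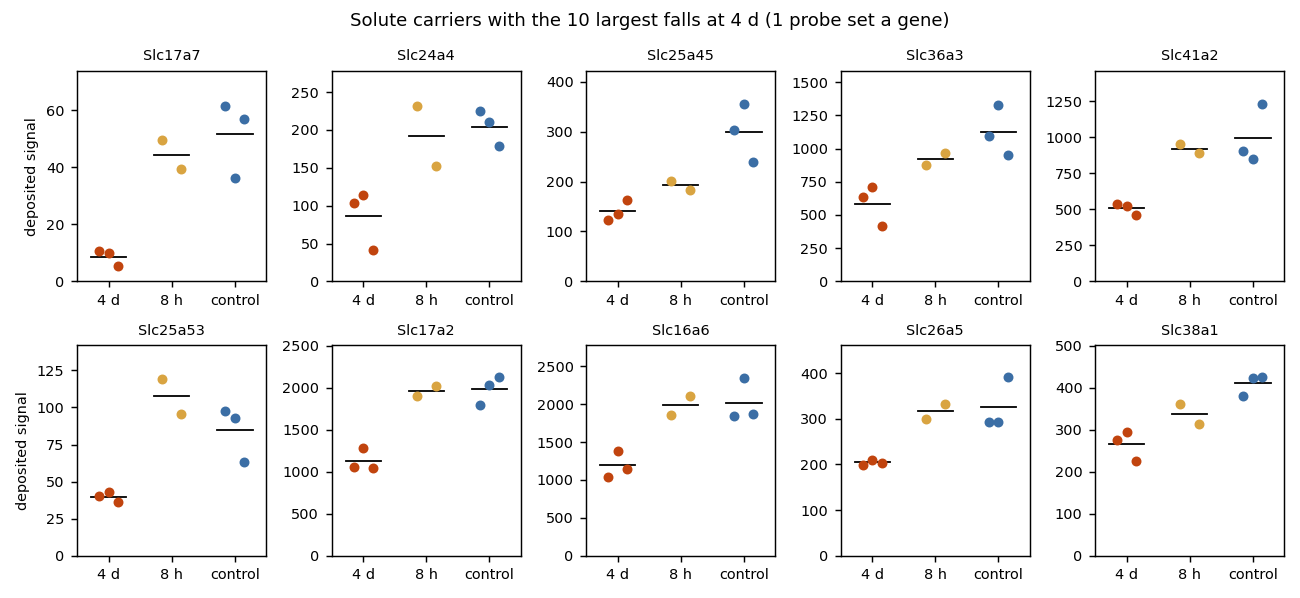
Deposited signal (linear axis from 0) of the 10 carrier genes with the largest falls at 4 d, 1 point an array and a bar at each group's mean, for 4 d (3 arrays), 8 h (2) and control (3). The 3 arrays at 4 d lie below every control array in each panel, from 5.3 to 10.5 for Slc17a7 and from 1046.5 to 1285.0 for Slc17a2.

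Of 53 carrier genes with several probe sets, 18 had probe sets that differed in sign at 4 d, and in 0 genes did several probe sets pass in the same direction. In 2 genes the probe sets passed in opposite directions. For Slc41a2, a magnesium transporter, the brighter probe set 1379805_at had 539.0, 519.4 and 463.4 at 4 d, 953.9 and 888.6 at 8 h, and 901.9, 849.7 and 1230.3 in control. The other, 1384934_at, had 490.0, 492.1 and 581.2 at 4 d, 360.0 and 331.0 at 8 h, and 276.3, 336.7 and 293.8 in control. On both, the arrays at 4 d stood apart from all others, below them on the first (log2 -0.93, SE 0.16, adjusted p 0.00542) and above them on the second (0.76, SE 0.14, adjusted p 0.00851). The second call was lost with arrays scaled to the same median (adjusted p 0.0593) and without run 2 (0.0559).

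For Slc52a3 the dimmer probe set 1384643_at had 70.6, 50.8 and 46.4 at 4 d, 107.9 and 93.6 at 8 h, and 129.4, 104.5 and 102.4 in control. This probe set fell by 0.84 on the log2 scale (SE 0.21, adjusted p 0.0313), where the brighter one rose. No direction is given for Slc41a2 or Slc52a3 as a whole gene, and the counts per gene above rest on the brighter probe sets. The fall at 1384643_at was lost without the second or the third array at 4 d or without any 1 control (adjusted p 0.0503 to 0.112). Which transcripts the probe sets report was not analysed here.

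Slc8a1, the sodium-calcium exchanger, was named after its values were seen. Its dimmer probe set, 1372449_at, had 216.9, 185.2 and 200.8 at 4 d, 45.3 and 39.2 at 8 h, and 54.4, 43.0 and 33.0 in control. The 4 d arrays were far above the rest (log2 1.88, SE 0.21), and the probe set reached the signal minimum only through them and 1 control array, so the difference is a description. With no signal minimum its adjusted p was 0.00134. The other probe set, 1370588_a_at, had 100.7, 111.9 and 59.3 at 4 d, 50.0 and 60.7 at 8 h, and 98.8, 133.2 and 75.5 in control, where 4 d and control overlapped (log2 -0.16, adjusted p 0.798). Slc4a7, a sodium bicarbonate cotransporter also named after its values were seen, fell on 1369160_a_at (log2 -0.77, SE 0.21, adjusted p 0.0459, and 0.0547 to 0.145 without any 1 array other than the third control) and did not pass on 1379739_at (log2 -0.33).

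The dimmer probe set of Slc2a3, 1387707_at, shows a difference between runs. Its signals were 3074.6, 2961.8 and 760.5 at 4 d, 2515.6 and 1063.9 at 8 h, and 2646.3, 2403.6 and 542.5 in control. The array of run 3 was the lowest in every group, and on average run 3 was lower than run 1 by a log2 of 1.83. Of the 275 carrier probe sets 9 were lower in run 3 than in run 1 by more than 1 on the log2 scale and 1 was higher (3.64% in all), against 3.56% of all probe sets.

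**Figure D4:**
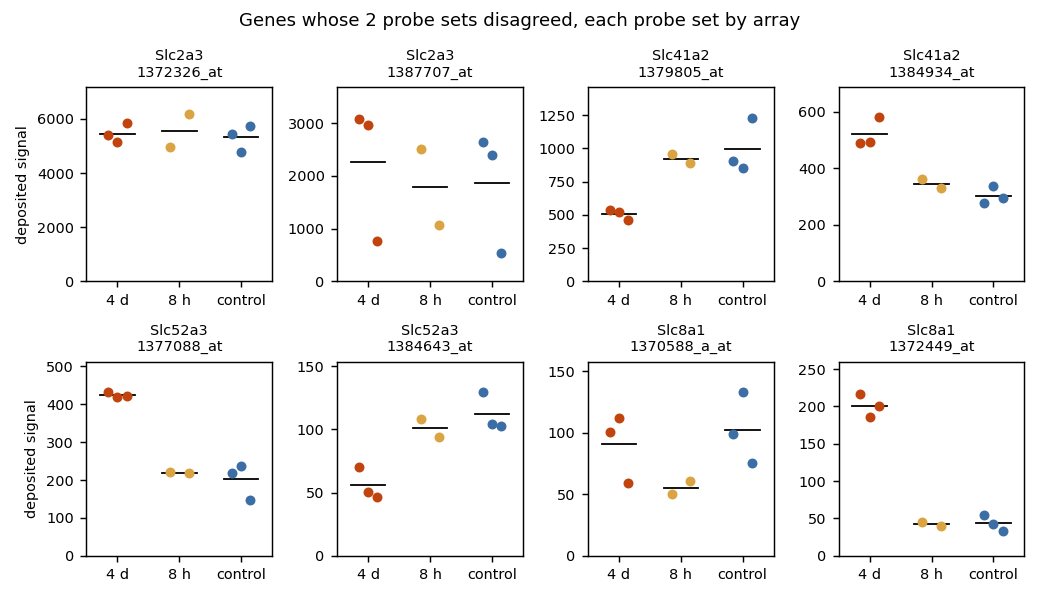
Deposited signal (linear axis from 0) at both probe sets of Slc2a3, Slc41a2, Slc52a3 and Slc8a1, 1 point an array and a bar at each group's mean, for 4 d (3 arrays), 8 h (2) and control (3). The 4 d arrays of Slc41a2 lie below control on 1379805_at and above it on 1384934_at, and 1 array in each group is low for Slc2a3 on 1387707_at.

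Of 19 carriers listed for known roles in sperm, germ cells or Sertoli cells, 11 passed the signal minimum. At 4 d 2 of these 11 rose (Slc2a1 and Slc11a2) and 1 fell (Slco6b1), where 12.8% of all genes passed (7.61% higher, 5.17% lower). The median log2 difference of the 11 was 0.0, against 0.04 over all probe sets. The lactate and pyruvate carriers did not pass. Slc16a1 had 691.6, 701.6 and 507.8 at 4 d, 639.8 and 374.8 at 8 h, and 628.8, 616.5 and 329.5 in control, and its groups overlapped (log2 0.31, 95% interval -0.31 to 0.92). Slc16a7, the form of spermatids and sperm, had 2074.5, 2334.9 and 2531.2 at 4 d, 3392.8 and 3722.0 at 8 h, and 3272.1, 2859.5 and 2438.1 in control, with the 8 h arrays highest and 4 d and control overlapping (log2 at 4 d -0.30, 95% interval -0.61 to 0.01). The fructose transporter Slc2a5 (0.62, interval -0.18 to 1.41) and the lactate exporter Slc16a3 (-0.33, interval -1.40 to 0.74) were dim and their intervals wide.

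Genes that work with the carriers were read from a separate list. Of 7 measured subunits of the sodium pump, whose gradient drives sodium-coupled carriers, Atp1b2 rose and Atp1a4 and Atp1b3 fell at 4 d. Atp1b2 rose by a log2 of 1.10 (SE 0.21, adjusted p 0.0105), and Atp1a4, the catalytic subunit of sperm, had 2489.8, 2908.2 and 2634.4 at 4 d, 4073.3 and 4362.6 at 8 h, and 4395.0, 4229.0 and 4870.1 in control (log2 -0.75, SE 0.12, adjusted p 0.00398, and 0.0843 with arrays scaled to the same median). The adjusted p of Atp1b3 reached 0.293 over the alternatives. Of 3 measured carrier chaperones Emb, a partner of monocarboxylate transporters, fell by 0.62 (adjusted p 0.0149, up to 0.156 over the alternatives). Of 12 carriers under other symbols the mitochondrial pyruvate carrier subunit Mpc1 rose by 0.55 (adjusted p 0.0187, up to 0.201). Of 5 aquaporins Aqp7, a channel for water and glycerol in spermatids, fell by 0.70 (adjusted p 0.0182, up to 0.187) and Aqp11 also fell (up to 0.289). Each of these calls other than that of Atp1b2 was lost with arrays scaled to the same median, and all but those of Atp1b2 and Atp1a4 without run 2.

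Of 15 measured ABC transporters, pumps driven by ATP, 4 rose and 0 fell. The 4 include Abcc3, whose count supports nothing because of the signal minimum, as given below. Abcg1, which exports sterols, had 433.6, 509.0 and 368.4 at 4 d, 227.2 and 189.9 at 8 h, and 154.9, 132.7 and 144.6 in control, with no overlap between the groups (log2 1.49, SE 0.16, adjusted p 0.000632). Abcc3, an exporter of organic anion conjugates, had 274.1, 187.2 and 91.2 at 4 d, 37.2 and 37.8 at 8 h, and 41.2, 7.8 and 6.0 in control (log2 2.57, SE 0.44). It reached the signal minimum only through the 4 d arrays, so this is a description, and its adjusted p was 0.00937 with no minimum and 0.0915 without run 2. Abca1 and Abcc9 rose too, with an adjusted p of up to 0.111 and 0.23 over the alternatives. In all, 11 of the 42 measured genes on this list passed at 4 d, against 12.8% of all genes, and the 11 include Abcc3. Only 3 passed with arrays scaled to the same median, where 1152 of all 19808 probe sets did. Without run 2 also only 3 passed, against 2.61% of all probe sets.

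At 8 h against control, 0 of the 275 carrier probe sets passed in limma, with or without the run as a block, and 12 had an unadjusted p below 0.05. Of all probe sets tested 0.0656% passed and 3.91% had an unadjusted p below 0.05. The smallest p was that of Slc20a1, a sodium-phosphate cotransporter, with 549.8, 428.4 and 497.9 at 4 d, 701.4 and 696.5 at 8 h, and 448.0, 430.5 and 474.9 in control. Both 8 h arrays were above all others. The log2 difference was 0.62 at 8 h (SE 0.15, 95% interval 0.29 to 0.94, adjusted p 0.401) and 0.12 at 4 d. A difference of this size did not pass the test at 8 h, where the group had 2 arrays.

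**Figure D5:**
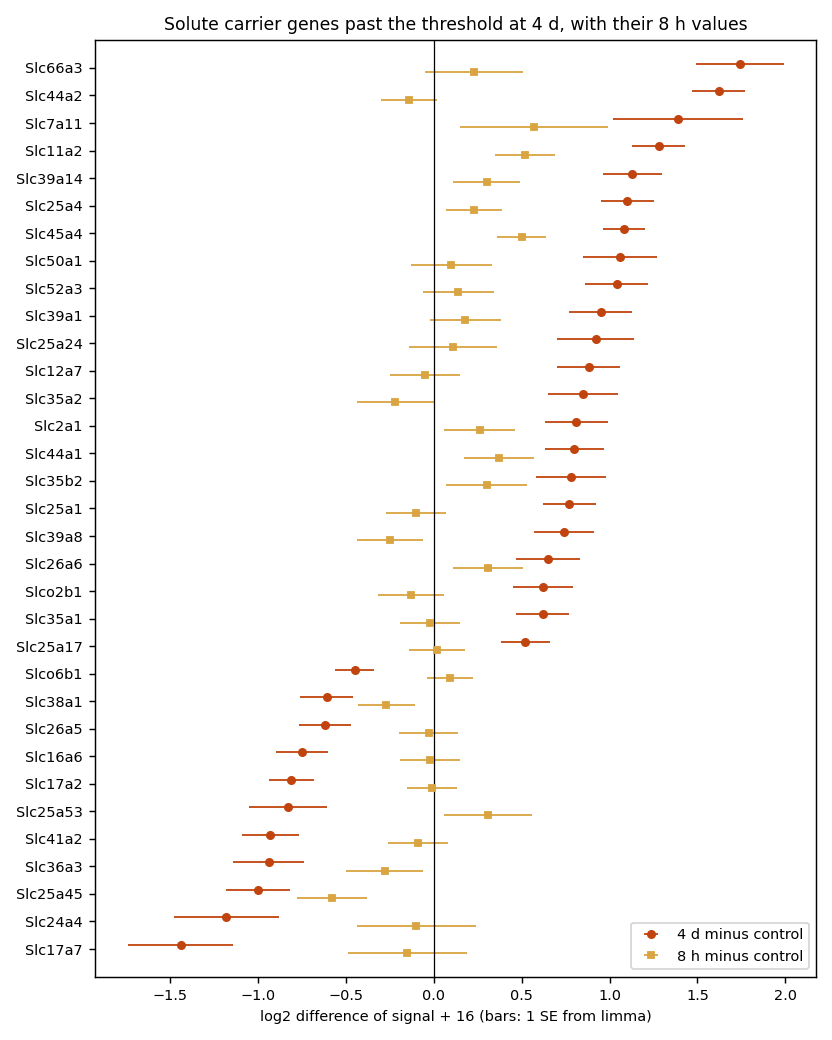
Log2 difference from control (horizontal axis, after adding 16 to the signal, bars 1 SE from limma) of the 33 carrier genes past the threshold at 4 d, for 4 d (circles) and for 8 h (squares), which share the control arrays. The 4 d values run from -1.44 for Slc17a7 to 1.74 for Slc66a3, and 0 of the 8 h values passed the test.

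The 4 d and 8 h groups were also compared directly. Of 275 probe sets 15 rose and 9 fell at 4 d against 8 h (8.73%), against 6.05% of all probe sets tested (3.58% higher, 2.47% lower). Of these calls, 4 were at probe sets that had reached the signal minimum only through the side on which they were high (Slc8a1, Slc25a53, Slc36a1 and Slc24a4 on 1378356_at), and without them 14 rises and 6 falls remained (7.27%), against 5.54% of all probe sets counted in the same way. A block for the run gave 29 rises and 20 falls, against 15.6% of all probe sets. The share of rises among these calls was 62.5%, against 40.9% after quantile normalization and 50% with arrays scaled to the same median, so their balance depended on the scaling. Over all called probe sets the shares were 59.2%, 49.4% and 54.1% in that order. Without run 2, 2 rose and 1 fell, against 1.78% of all. Slc36a1, a proton-coupled amino acid transporter of lysosomes and plasma membrane, had 6.0 to 10.6 on the 3 arrays at 4 d, 98.2 and 54.5 at 8 h, and 60.1, 21.9 and 22.0 in control. Its 4 d arrays were lowest (log2 -1.86 against 8 h, SE 0.42) and all below the minimum of 50, which 8 h and control arrays alone reached, so this is a description. The adjusted p was 0.0304 with no minimum, and 0.0714 to 0.188 when any 1 of the 4 d or 8 h arrays was left out. Slc27a3, an acyl-CoA synthetase of the fatty acid transport family, had 262.6, 210.4 and 289.7 at 4 d, 118.7 and 144.9 at 8 h, and 226.7, 204.3 and 208.1 in control. Here the 8 h arrays were the low ones, and the 4 d minus 8 h difference was 0.87 (SE 0.19, adjusted p 0.0253). That call did not stay past the threshold under every alternative run.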

How the data were processed

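Each sample of whole testis RNA was measured on 1 Affymetrix Rat Genome 230 2.0 array. Sample titles gave the groups, since another label describes all 8 samples as normal. Per the labels, the deposited values are MAS 5.0 signal intensities on a linear scale, and each array's deposited values had a 2% trimmed mean of 250.1. Detection calls were not used here. The arrays' settings files were read only for the hybridisation run. Both arrays of run 2 had fluidics protocol version 4, against version 5 on the others, and a sample type entry naming mouse.

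Arrays were rescaled to a 2% trimmed mean of 250 and log2(signal + 16) was taken. The test covered the 19808 probe sets that had a deposited signal of at least 50 on at least 2 arrays and were not among the 57 control probe sets. A single fit of all 8 arrays without a block was made in limma 3.58.1 (R 4.3.3) with lmFit and trended eBayes, with Benjamini-Hochberg adjustment over all probe sets tested and a threshold of 0.05. The fit was also run on simulated arrays with known changes. Their noise was independent between arrays, without the shared deviations of a run, so the effect of runs on the fit was not covered. A fold is the log2 difference taken off the log scale. Of the 31042 non-control probe sets, 20826 had 1 gene symbol, 436 several and 9780 none. All 275 carrier probe sets matched RefSeq, and 0 symbols differed. Where genes were counted, each stood for its brightest probe set by mean log2 signal.

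The carriers, their substrate classes, the partner and marker lists and the alternatives were chosen with earlier results of these data known. Genes were named by a rule: 12 rises and 12 falls of the greatest size among calls at 4 d, 6 in each direction at 8 h and at 4 d against 8 h, up to 4 called members of each class or else the one with the smallest p, listed germ and Sertoli cell carriers, genes with opposite calls, and called partners. Slc25a1, Slc25a17, Slc8a1, Slc4a7 and Slc27a3, and examples that did not pass, were added with their values known.

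Titles in different groups share replicate numbers. Deviations from the group means correlated at 0.353 to 0.506 between arrays that shared a run but not a group, and at -0.475 to 0.246 between arrays of different runs. Equal numbers in control and at 4 d mean the same run, while the second array at 8 h belongs to run 3. The pairing was used only in the fits with a block, and all SEs, p-values and calls not said to be blocked come from the fit without one. Alternatives were quantile and median scaling, pseudocounts of 4 and 64, no signal minimum or 100, a block for the run or the replicate number, each array left out, and run 2 left out.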

Additional observations from a re-analysis of the deposited data

Results flagged for a closer look

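Here an effect is the difference of a treated group from the untreated controls, which both times share. The effects at 4 d and 8 h differed at 24 carrier probe sets, the same calls as in the direct comparison above. That is 8.73%, against 6.05% of all probe sets tested. The test was limma's of 4 d against 8 h, which is the test of the difference between both effects because they share the control arrays. On the log2 scale the effect at 4 d less that at 8 h was 1.90 at Slc8a1, 1.77 at Slc44a2, 1.51 at Slc66a3, 1.07 at Slc35a2, 0.99 at Slc39a8, 0.96 at Slc50a1, 0.93 at Slc12a7 and 0.90 at Slc52a3. It was 0.87 at Slc27a3, 0.87 at Slc25a1, 0.87 at Slc25a4, 0.83 at Slc39a14, 0.76 at Slc11a2, 0.75 at Slco2b1 and 0.58 at Slc45a4. The differences below 0 were -1.86 at Slc36a1, -1.16 at Slc24a4, -1.14 at Slc25a53, -0.84 at Slc41a2, -0.79 at Slc17a2, -0.74 at Slc16a6, -0.64 at Slc4a7, -0.62 at Slc16a7 and -0.54 at Slco6b1. These are 15 and 9 probe sets, at an adjusted p of 0.000646 for Slc44a2 up to 0.0465 for Slc16a7. For Slc24a4 the value is that of its dimmer probe set 1378356_at, for Slc4a7 that of 1379739_at, for Slc41a2 that of 1379805_at, for Slc52a3 that of 1377088_at and for Slc8a1 that of 1372449_at. The probe sets of Slc8a1, Slc36a1, Slc24a4 and Slc25a53 reached the signal minimum only through the side on which they were high, so their values are descriptions. Without them the share was 7.27%, against 5.54% of all probe sets counted in the same way. Of the 24 calls only those of Slc44a2 and Slc8a1 stayed past the threshold under every alternative run. Both spermatid and leukocyte markers also differed between 4 d and 8 h, as given above, and their part was not tested.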

How the results depend on the processing

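Under the alternatives named above, of which the removal of run 2 was chosen after seeing the data, the sign of every named call was kept. Of 48 named calls at 4 d, partners included, 11 passed under every alternative: Slc44a2, Slc66a3, Slc11a2, Slc45a4, Slc25a4, Slc52a3 (1377088_at), Slc8a1 (1372449_at), Slc17a2, Slc41a2 (1379805_at), Atp1b2 and Abcg1, with that of Slc8a1 resting on a probe set that reached the signal minimum only through its high side. Of the 37 carrier probe sets called at 4 d, 37 had the same sign and an unadjusted p below 0.05 without run 2, and 10 were called. With arrays scaled to the same median the counts of calls were 22 carrier probe sets and 19 carrier genes at 4 d against control, 8 carrier probe sets at 4 d against 8 h and 3 partner genes, and over all probe sets 1152 at 4 d against control, 20 at 8 h against control and 518 at 4 d against 8 h. With the run as a replicate block they were 62, 53 and 49 for the carriers, and 4449, 55 and 3098 over all probe sets. With the replicate number of the titles as a replicate block they were 44 carrier probe sets at 4 d against 8 h, and 3495, 38 and 2543 over all probe sets. The blocked fits lost none of the 37 calls at 4 d when the run was the block. Without run 2 the counts were 10 carrier probe sets and 9 carrier genes at 4 d against control, 3 carrier probe sets at 4 d against 8 h and 3 partner genes, and over all probe sets 516, 3 and 353. Leaving out 1 array at a time gave 17 to 34 carrier probe sets and 14 to 31 carrier genes at 4 d against control, 2 to 28 carrier probe sets at 4 d against 8 h, 4 to 10 partner genes, and 895 to 1803, 0 to 15 and 264 to 1501 over all probe sets. With fewer arrays a fit has fewer residual degrees of freedom, and for the scaling and the blocks the cause was not tested. Where 1 of both 8 h arrays was left out, the remaining one was assumed to vary like the other groups. Sign changes occurred 101 times, among values called under neither setting. The share of rises among carrier calls at 4 d against control was 64.9%, and 58.1% after quantile normalization. Over all called probe sets it was 62.3% and 53.6% in that order. Few arrays and dim signals limit what can be called. The calls of Slc25a1 and Slc39a1 at 4 d were lost with median scaling and without run 2 (adjusted p up to 0.114 and 0.0595), and those of Slc39a14, Slc50a1 and Slc25a45 without run 2 alone.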
